A study of Drosophila melanogaster with 6 samples.

Results

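The transcripts described here are those of the mitochondrial genome (mtDNA) of Drosophila melanogaster in adult indirect flight muscle. Their members were all 37 genes that the deposited count table places on the mitochondrial genome, out of 17494 genes in all. They comprise 13 protein-coding genes, 2 ribosomal RNA (rRNA) genes and 22 transfer RNA (tRNA) genes, and 23 lie on the plus strand and 14 on the minus strand. The choice used position alone and no measured value. The M1BP RNAi samples were flight muscles in which the muscle driver Mef2-GAL4 expressed an RNAi hairpin of the VDRC KK collection against M1BP, a transcription factor that binds the promoter element Motif-1. The WT samples were the same muscles from a cross of Mef2-GAL4 to w1888. Each group had 3 samples, and each sample pooled muscles dissected by hand from 30 females aged 2 days. Mef2-GAL4 was thus present in both groups, whereas the hairpin and the background of its line were present only in M1BP RNAi. Mef2-GAL4 acts in all myogenic stages and can also act outside muscle, including in some neurons. The labels name Mef2-GAL4 first in both crosses, and which parent was the mother, from whom mtDNA is inherited, is not given in the sources used here.

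The mitochondrial genome is a small circle whose genes are packed head to tail on both strands and are transcribed as long precursors. The tRNAs lie between many of the mRNAs and rRNAs, and cutting at their ends by mitochondrial RNase P (5′ end) and RNase Z (3′ end) releases the RNAs on either side. The encoded proteins are core subunits of respiratory complexes I, III and IV and of the ATP synthase, on which flight muscle depends. PolyA selection preceded library construction, so counts on rRNA and tRNA genes come from molecules that this selection retained and do not measure the whole rRNA or tRNA pool.

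The total count ran from 37908823 to 64768186 in M1BP RNAi samples and from 45132859 to 64871987 in WT samples. M1BP itself had 48, 50 and 85 counts in M1BP RNAi and 87, 93 and 126 in WT, a log2 fold change of −1.36 (SE 0.16, adjusted p = 3.36e-04, edgeR's quasi-likelihood test). This call was lost when any sample was left out, with adjusted p between 0.00103 and 0.00228 (edgeR). The summed level of 5 genes taken as indirect flight muscle markers was 62658 to 85293 counts per 1000000 nuclear counts in M1BP RNAi and 30504 to 35892 in WT. The 5 genes were Act88F, fln, TpnC4, Mhc and up, of which Mhc and up are not specific to this muscle. The 4 fat body markers summed to 571 to 1132 in M1BP RNAi and 2246 to 3925 in WT. The 3 blood cell markers summed to 237 to 316 in M1BP RNAi and 354 to 385 in WT, and the 3 neuronal markers to 41.0 to 53.5 in M1BP RNAi and 68.6 to 102 in WT. The 2 tubular muscle markers summed to 296 to 931 in M1BP RNAi and 172 to 360 in WT, and the 2 ovary markers found to at most 8.43 in M1BP RNAi and at most 0.481 in WT. None of these markers was at 0 in every sample, and the part of the other tissues in the results below was not tested. In bulk muscle, fewer cells of a type and less RNA per cell cannot be told apart.

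The mitochondrial share of all counts was lower upon M1BP RNAi, and within it the rRNA share was lower and the mRNA share higher. Genes of mtDNA took 54.0%, 59.4% and 58.1% of all counts in M1BP RNAi, against 76.3%, 75.2% and 71.5% in WT. The rRNA share of the mitochondrial counts was 32.6%, 31.1% and 31.8% in M1BP RNAi, against 61.0%, 56.0% and 54.9% in WT. The protein-coding share was 67.0%, 68.5% and 67.8% in M1BP RNAi, against 38.6%, 43.6% and 44.9% in WT. For each of these shares the groups did not overlap, and the difference reached the smallest p that 3 against 3 samples allow (exact two-sided permutation test, p = 0.1, adjusted p = 0.143 over 10 shares). This exact test therefore cannot place any share past 0.05. The rRNA and protein-coding shares are not separate results, since the tRNAs took at most 0.472% and 1 share nearly fixes the other. With the rRNAs left out of the total, the protein-coding share was 99.4% ± 0.121 in M1BP RNAi and 99.1% ± 0.303 in WT (SD, n = 3 each). There the groups overlapped (exact permutation p = 0.3).

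By strand, the plus strand took 57.1% ± 0.543 of the mitochondrial counts in M1BP RNAi and 34.9% ± 2.51 in WT (SD, n = 3 each; exact permutation p = 0.1). Most of this difference went with the rRNAs, which are both on the minus strand. With the rRNA counts left out, the plus strand took 83.8% ± 0.203 in M1BP RNAi and 81.7% ± 0.429 in WT (SD, n = 3 each), a difference of 2.10 percentage points whose groups still did not overlap. The tRNA genes together took 0.472%, 0.318% and 0.422% of the mitochondrial counts in M1BP RNAi, against 0.412%, 0.454% and 0.234% in WT, and here the groups overlapped (exact permutation p = 0.6). The make-up of the tRNA counts nevertheless differed by strand. The plus strand carried 52.4%, 53.4% and 51.6% of the tRNA counts in M1BP RNAi, against 19.5%, 23.3% and 28.5% in WT. A single minus strand gene, trnL2 (mt:tRNA:Leu-TAG), took 42.2% ± 1.91 of the tRNA counts in M1BP RNAi and 73.2% ± 5.86 in WT (SD, n = 3 each).

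**Figure D1:**
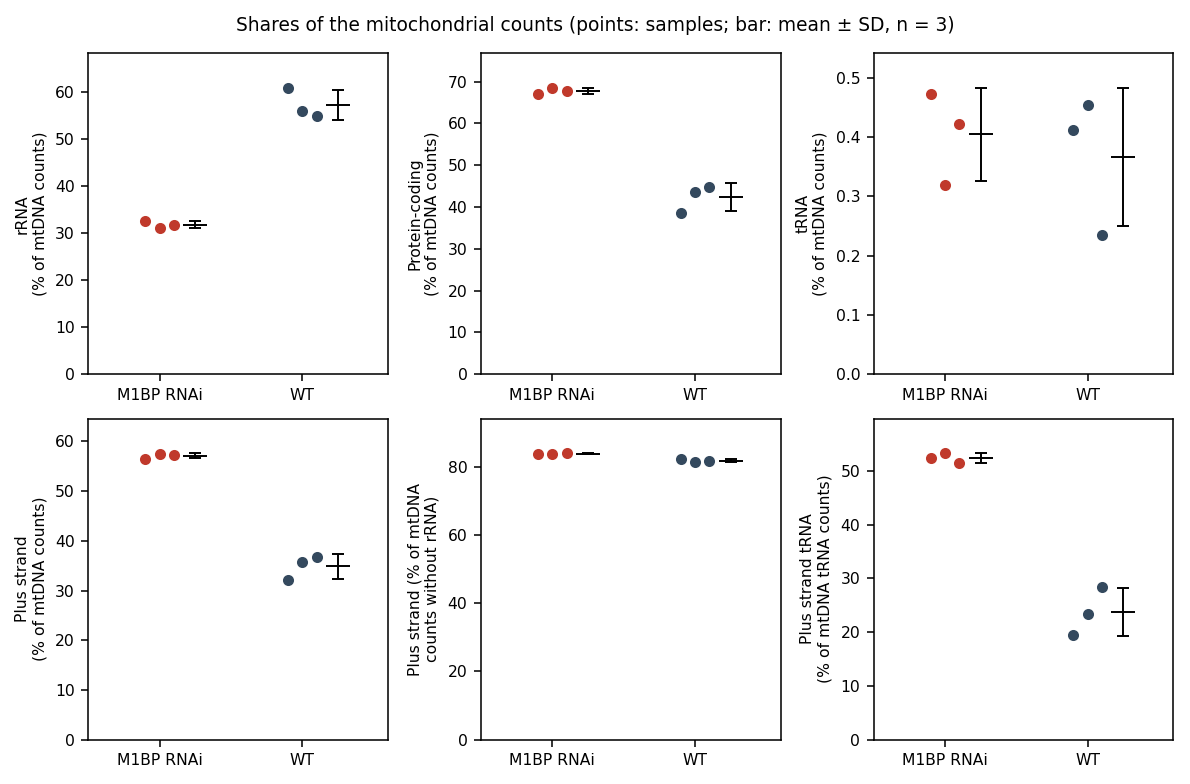
Shares of mitochondrial counts in each sample, with M1BP RNAi on the left of each panel and WT on the right. Points are samples, bars are means ± SD (n = 3), and every y axis is in percent and starts at 0. The rRNA share sits at 31.1% to 32.6% in M1BP RNAi and at 54.9% to 61.0% in WT, whereas the tRNA shares overlap.

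The sums of each class were also set against the library as a whole. After TMM scaling, which corrects for composition, the summed counts of the 2 rRNAs were 0.254 times those of WT and the summed counts of the 13 mRNAs were 0.732 times those of WT (exact permutation p = 0.1 for each, the smallest p possible). The direction for the mRNAs depends on the scaling, since as a share of all counts they took 38.8% ± 2.35 in M1BP RNAi and 31.4% ± 1.74 in WT (SD, n = 3 each), whereas the rRNAs were lower on both scales. With TMM scaling the plus strand mRNAs were at 0.747 times and the 4 minus strand mRNAs at 0.659 times the WT sum. The 22 tRNAs summed to 0.517 times the WT value, with groups that did not overlap (exact permutation p = 0.1), and the tRNAs without trnL2 to 1.13 times the WT value, with overlapping groups (exact permutation p = 0.7).

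Taken gene by gene with TMM scaling, 9 of the 22 tRNAs, the 2 rRNAs and 1 of the 13 mRNAs were called at an adjusted p of at most 0.001 (edgeR). Of the 37 genes, 9 were higher and 3 were lower, where 11.0% of the 9276 genes tested were higher and 6.58% lower. The genes that rose were trnW, trnC, trnY, trnL1, trnA, trnR, trnP, trnV and the mRNA ND3, and those that fell were lrRNA, srRNA and trnH. The median log2 fold change was 1.33 over the 22 tRNAs, −0.43 over the 13 mRNAs and −0.12 over all 37 genes, against 0.02 over all genes tested. All 37 genes passed the filter on low counts, but trnI, trnC, trnE and trnP had fewer than 10 counts in every WT sample. These genes passed through their M1BP RNAi counts, as did trnY, with 9, 10 and 17 counts in WT. A count of calls over the tRNAs thus partly reflects the filter.

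When each sample was instead scaled by its own mitochondrial total, 18 genes were higher and 2 were lower at the same threshold (edgeR), where 39.2% of the 9276 genes were higher and 0.755% lower. On this scale the median log2 fold change was 0.99 over the 37 genes and 1.14 over all genes tested, since nuclear genes are then scaled to the mitochondrial total too, and a value above 0 means a larger part of the mitochondrial RNA. The genes that rose were 13 tRNAs and the mRNAs ND2, COX2, ATP6, ND3 and ND6, and the 2 that fell were the rRNAs. All 23 plus strand genes had values above 0, as did 9 of the 14 minus strand genes. How many of all genes tested did so was not counted. With the rRNAs also left out of the total, 9 genes were higher and 2 lower, beside a median log2 fold change of 0.48 over all genes tested. The share of all genes called on that scale was not counted. There the plus strand genes COX1, trnD, COX3, CYTB and trnS1 were below 0, so their sign depended on the rRNAs in the total.

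**Figure D2:**
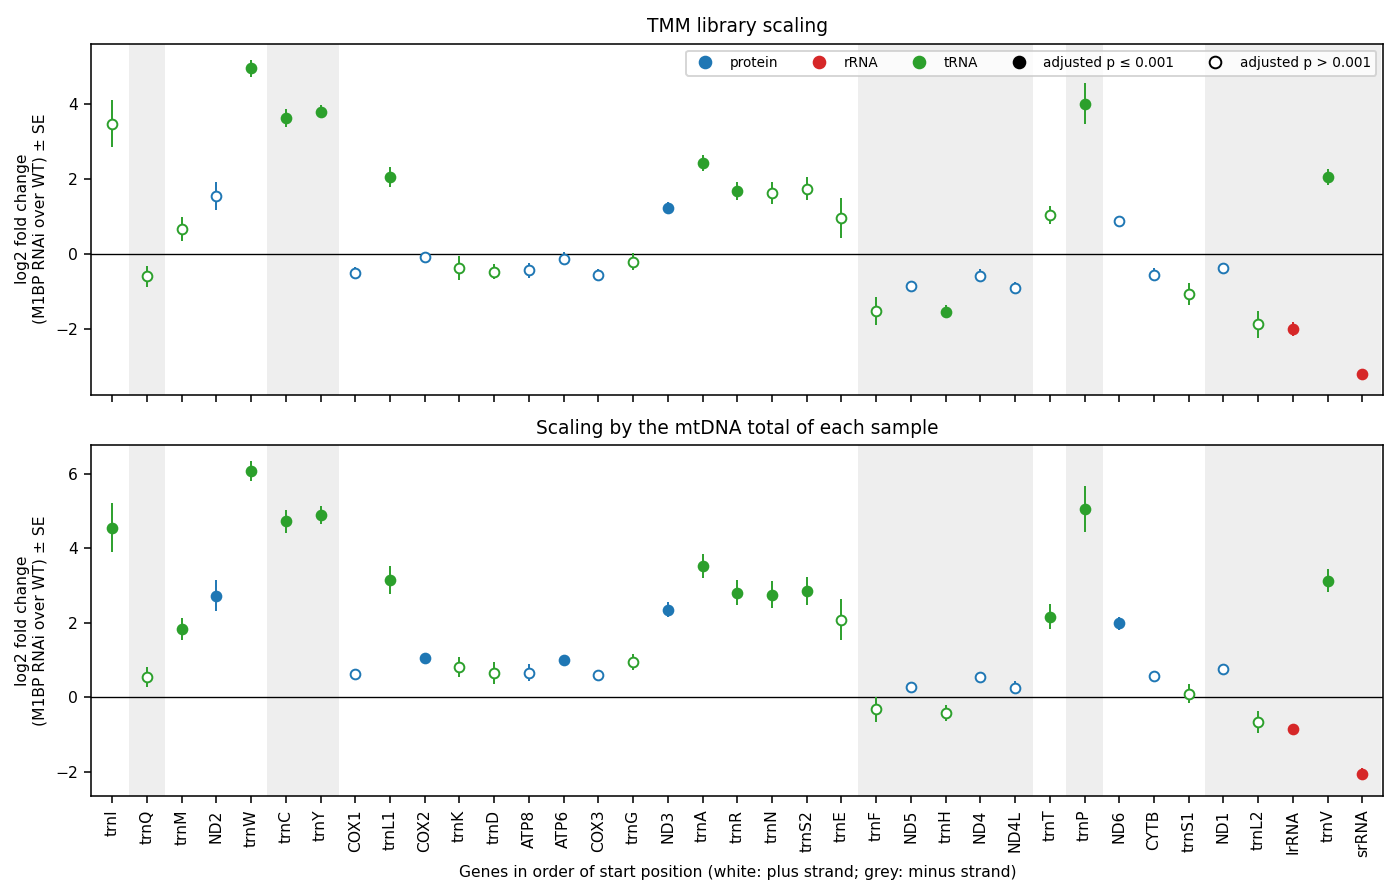
log2 fold change of M1BP RNAi over WT with its standard error for the 37 genes in order of position, with TMM library scaling above and scaling by the mitochondrial total below. Colours give the class, filled points passed an adjusted p of 0.001 and grey bands mark the minus strand. The 2 rRNAs are the lowest points in both panels and trnW is the highest.

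The strongest falls were at the end of the genome. lrRNA (FBgn0013686, minus strand, 12734 to 14058 of the mitochondrial genome, release 6), the RNA of the large ribosomal subunit, took 32.4%, 31.0% and 31.7% of the mitochondrial counts in M1BP RNAi, against 60.6%, 55.5% and 54.4% in WT. Its log2 fold change was −1.99 (SE 0.19, adjusted p = 1.43e-04, edgeR) with TMM scaling and −0.84 within the mitochondrial total. The TMM call was lost without M1BP RNAi 2 or without M1BP RNAi 3 (adjusted p = 0.00123 and 0.0012, edgeR). srRNA (FBgn0013688, minus strand, 14131 to 14916), the RNA of the small subunit, was the deeper fall. It took 0.127%, 0.107% and 0.121% in M1BP RNAi, against 0.409%, 0.516% and 0.547% in WT. This gave a log2 fold change of −3.18 (SE 0.13, adjusted p = 5.82e-06, edgeR) with TMM scaling and −2.05 within the mitochondrial total, and it passed the threshold whichever sample was left out. Per base, lrRNA was 159 times as high as srRNA in M1BP RNAi and 69.1 times in WT, with no overlap between the groups (exact permutation p = 0.1; a ratio chosen after the values were seen).

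Between these 2 falling genes, with no free base on either side, lies trnV (FBgn0013708, minus strand, 14058 to 14130), the valine tRNA, and it rose. It had 135, 131 and 109 counts per 1000000 mitochondrial counts (mtCPM) in M1BP RNAi, against 8.51, 14.9 and 19.0 in WT. Its log2 fold change was 2.05 (SE 0.21, adjusted p = 1.90e-04, edgeR), and the call was narrowly lost without M1BP RNAi 2 or without WT 2 (adjusted p = 0.00104 and 0.00102, edgeR). On the other side of lrRNA, trnL2 (FBgn0013698, 12670 to 12734) is a leucine tRNA that shares 1 base with it. It had 2021, 1277 and 1848 mtCPM in M1BP RNAi and 3234, 3354 and 1566 in WT, where WT 3 fell inside the M1BP RNAi range. Its log2 fold change of −1.86 did not pass the threshold (SE 0.36, adjusted p = 0.00334, edgeR), except without WT 3, where it was −2.19 (adjusted p = 2.14e-04, edgeR). ND1 (FBgn0013679, 11721 to 12659), a complex I subunit and the remaining gene of this minus strand run, took 4.30%, 4.47% and 4.11% in M1BP RNAi and 2.25%, 2.66% and 2.73% in WT. Its TMM log2 fold change was −0.37 (adjusted p = 0.0619, edgeR).

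COX1, CYTB and COX3, all abundant mRNAs of the plus strand, moved little relative to one another. COX1 (FBgn0013674, 1474 to 3009), the catalytic core of complex IV, took 21.9%, 21.5% and 20.3% of mitochondrial counts in M1BP RNAi and 12.9%, 14.1% and 14.0% in WT. CYTB (FBgn0013678, 10499 to 11635), the cytochrome b of complex III, took 9.11%, 10.7% and 10.9% in M1BP RNAi and 6.17%, 7.03% and 7.41% in WT. COX3 (FBgn0013676, 4736 to 5524), of complex IV, took 11.0%, 10.1% and 10.1% in M1BP RNAi and 6.41%, 6.96% and 7.39% in WT. All 3 had a larger share in every M1BP RNAi sample than in any WT sample, but with the rRNAs left out of the total their log2 fold changes were −0.04, −0.10 and −0.08. With TMM scaling they were −0.50, −0.54 and −0.54, none past the threshold, and with total library size all 3 were above 0.

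COX2 (FBgn0013675, 3083 to 3767), which carries the electron entry site of complex IV, took 4.76%, 4.06% and 4.52% in M1BP RNAi, against 2.01%, 2.21% and 2.20% in WT. ATP6 (FBgn0013672, 4062 to 4736), a proton channel subunit of the ATP synthase, took 7.79%, 9.57% and 9.67% in M1BP RNAi, against 3.97%, 4.62% and 5.00% in WT. Both passed the threshold within the mitochondrial total, with log2 fold changes of 1.05 (SE 0.13, adjusted p = 1.53e-04, edgeR) and 0.99 (SE 0.15, adjusted p = 4.66e-04, edgeR). The COX2 call was lost without M1BP RNAi 3 or without WT 2 and that of ATP6 without M1BP RNAi 2, M1BP RNAi 3, WT 1 or WT 2, with adjusted p up to 0.00121 and 0.00275 (edgeR). With the rRNAs left out of the total they were at 0.38 and 0.32, not past the threshold (adjusted p = 0.0262 and 0.0606, edgeR). With TMM scaling both were close to 0, at −0.09 and −0.12, and with total library size they were at 0.67 and 0.62. ATP8 (FBgn0013673, 3907 to 4068), a small ATP synthase subunit that overlaps ATP6 by 7 bases, took 0.776%, 0.866% and 0.904% in M1BP RNAi and 0.357%, 0.633% and 0.617% in WT. Its WT 1 value stood below the other WT samples, and it passed under neither scaling.

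The 3 plus strand mRNAs that were scarcest in WT behaved differently, and all 3 encode subunits of complex I. This grouping by WT level, which is also the denominator of the fold change, was made after the values were seen. ND4L, a scarce mRNA of the minus strand, went the other way with TMM scaling (log2 fold change −0.89). ND3 (FBgn0013681, 5608 to 5961) had 7820, 5699 and 5641 mtCPM in M1BP RNAi, against 1185, 1091 and 1467 in WT. ND2 (FBgn0013680, 240 to 1265) had 1176, 444 and 429 in M1BP RNAi, against 86.3, 133 and 88.7 in WT, with M1BP RNAi 1 far above the other M1BP RNAi samples. ND6 (FBgn0013685, 9971 to 10495) had 149, 158 and 177 in M1BP RNAi, against 34.7, 43.2 and 44.1 in WT. Within the mitochondrial total, ND3 rose by 2.36 (SE 0.20, adjusted p = 2.76e-05, edgeR), ND2 by 2.74 (SE 0.42, adjusted p = 5.41e-04, edgeR) and ND6 by 1.99 (SE 0.17, adjusted p = 2.73e-05, edgeR) on the log2 scale. The ND3 and ND6 calls held whichever sample was left out, and that of ND2 was lost when any WT sample was left out (adjusted p up to 0.00583, edgeR). With TMM scaling the values were 1.22, 1.56 and 0.87, of which ND3 alone passed, and not when any sample was left out.

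The 4 mRNAs of the minus strand all had TMM log2 fold changes below 0 (ND1 and ND4 were above 0 with total library size), and none passed the threshold. Of these 4, all complex I subunits, ND5 (FBgn0013684, 6409 to 8125) took 3.65%, 3.60% and 3.66% of mitochondrial counts in M1BP RNAi and 2.51%, 3.22% and 3.29% in WT. ND4 (FBgn0262952, 8206 to 9545) took 2.71%, 3.06% and 2.92% in M1BP RNAi and 1.85%, 1.97% and 2.08% in WT. ND4L (FBgn0013683, 9545 to 9835) was scarce, with 231, 178 and 160 mtCPM in M1BP RNAi and 155, 160 and 160 in WT, so that its lowest M1BP RNAi value lay just above the WT values. The TMM log2 fold changes were −0.85 for ND5, −0.57 for ND4 and −0.89 for ND4L (adjusted p = 0.00151, 0.0182 and 0.00239, edgeR).

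These 3 mRNAs form a run on the minus strand with trnF and trnH, and all 5 genes of the run had TMM values below 0, of which ND4 alone was above 0 with total library size. trnH (FBgn0013695, 8141 to 8206), the histidine tRNA between ND5 and ND4, had 50.7, 51.6 and 51.7 mtCPM in M1BP RNAi and 48.0, 82.8 and 76.2 in WT. The M1BP RNAi samples were nearly equal, and WT 1 lay below them. With TMM scaling trnH fell by 1.53 on the log2 scale (SE 0.17, adjusted p = 2.57e-04, edgeR), a call lost without any of the M1BP RNAi samples (adjusted p up to 0.00181, edgeR), and within the mitochondrial total the groups overlapped (log2 fold change −0.43). trnF, the phenylalanine tRNA, had a TMM log2 fold change of −1.51 (adjusted p = 0.00961, edgeR). The run as a whole took 6.56% ± 0.150 of the mitochondrial counts in M1BP RNAi and 5.00% ± 0.537 in WT (SD, n = 3 each), but 9.62% ± 0.124 and 11.7% ± 0.385 once the rRNAs were left out (M1BP RNAi and WT, n = 3 each).

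Total library size as the scaling moved the median of all genes by 0.77 on the log2 scale. Under it 12 of the 37 genes, 8 mRNAs and 4 tRNAs, had values above 0 in place of values below 0, and all 12 lay below that median. The 8 mRNAs were COX1, COX2, COX3, ATP8, ATP6, ND4, CYTB and ND1.

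Among the tRNAs, 3 neighbours near the start of the genome rose together. trnW (FBgn0013709, plus strand, 1264 to 1329), the tryptophan tRNA, had 130, 90.1 and 83.4 mtCPM in M1BP RNAi, against 1.39, 1.77 and 1.32 in WT. Its raw counts were 2652, 2283 and 3135 in M1BP RNAi, against 48, 67 and 61 in WT. trnC (FBgn0013690, minus strand, 1322 to 1383), for cysteine, had raw counts of 124, 91 and 175 in M1BP RNAi, against 5, 7 and 9 in WT. trnY (FBgn0013710, minus strand, 1403 to 1468), for tyrosine, had 217, 201 and 324 in M1BP RNAi, against 9, 10 and 17 in WT. The groups were far apart for all 3 genes. The TMM log2 fold changes were 4.93 (SE 0.23) for trnW, 3.61 (SE 0.24) for trnC and 3.78 (SE 0.17) for trnY, with adjusted p = 7.86e-06, 2.67e-05 and 7.57e-06 (edgeR), and each call held whichever sample was left out. trnC had fewer than 10 counts in every WT sample, and trnY had 9 in WT 1 and 10 in WT 2. Both entered the test only through their M1BP RNAi counts, so their calls are not independent of that rise. trnW and trnC overlap by 8 bases on opposite strands and trnW shares 2 bases with ND2. Whether the counting used strand is not given in the sources used here, so reads of either gene over the shared bases cannot be told apart.

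The second group of rising tRNAs follows ND3 on the plus strand, where trnA, trnR, trnN, trnS2 and trnE stand in a row. trnA (FBgn0013689, 5983 to 6047), for alanine, had 391, 241 and 380 mtCPM in M1BP RNAi, against 18.4, 30.4 and 38.6 in WT. trnR (FBgn0013704, 6062 to 6125), for arginine, had 203, 97.4 and 135 in M1BP RNAi, against 13.3, 22.5 and 26.0 in WT. The level fell steeply along the row in both groups. On the same scale, trnN (asparagine) averaged 11.9 in M1BP RNAi and 1.74 in WT, trnS2 (serine) averaged 9.55 in M1BP RNAi and 1.29 in WT, and trnE (glutamate) averaged 0.610 in M1BP RNAi and 0.137 in WT. With TMM scaling trnA rose by 2.42 (SE 0.22, adjusted p = 9.92e-05, edgeR) and trnR by 1.69 (SE 0.24, adjusted p = 7.76e-04, edgeR) on the log2 scale. The trnA call held whichever sample was left out, and the trnR call was lost whichever was left out. The values of trnN, trnS2 and trnE were 1.63, 1.73 and 0.95, and none of them passed (adjusted p = 0.00258, 0.00222 and 0.16, edgeR).

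trnL1 (FBgn0013699, plus strand, 3012 to 3077), the leucine tRNA between COX1 and COX2, had 189, 125 and 114 mtCPM in M1BP RNAi, against 8.57, 17.6 and 22.3 in WT. Its log2 fold change was 2.05 (SE 0.27, adjusted p = 5.63e-04, edgeR), and it did not pass when any sample was left out. trnP (FBgn0013702, minus strand, 9904 to 9964), for proline, had raw counts of 66, 85 and 105 in M1BP RNAi, against 0, 2 and 9 in WT. A count of 0 in WT 1 allows up to 0.0871 mtCPM (3 counts), and the fitted log2 fold change of 4.00 (SE 0.55, adjusted p = 6.83e-04, edgeR) rests on these few WT counts. With a sample left out, it passed only in the fit without WT 3. Its neighbour on the other strand, trnT (threonine), had raw counts of 138, 81 and 208 in M1BP RNAi and 30, 39 and 70 in WT, and trnI (isoleucine), the first gene of the genome, had 57, 34 and 34 in M1BP RNAi and 1, 1 and 6 in WT. Neither passed with TMM scaling (adjusted p = 0.00845 and 0.00239, edgeR), and both did within the mitochondrial total. That pass was lost for both without WT 1 or WT 2, and for trnT also without M1BP RNAi 1 or M1BP RNAi 3 (adjusted p up to 0.00374 for trnI and 0.00404 for trnT, edgeR). Like trnC and trnY, both trnP and trnI entered the test only through their M1BP RNAi counts.

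None of the tRNAs with the highest WT levels rose with TMM scaling. Per length, the 5 highest tRNA genes in WT were trnL2, trnG, trnK, trnS1 and trnH, and their TMM log2 fold changes were −1.86, −0.20, −0.36, −1.07 and −1.53, of which those of trnG and trnK were above 0 with total library size. Of these only trnH passed the threshold, and the grouping by WT level, which is also the denominator of the fold change, was made after the values were seen. trnG (glycine) had 740, 535 and 701 mtCPM in M1BP RNAi and 313, 435 and 271 in WT. trnK (lysine) had 385, 289 and 411 in M1BP RNAi and 227, 260 and 127 in WT. Both were thus higher in every M1BP RNAi sample within the mitochondrial total, at log2 fold changes of 0.96 and 0.82 that did not pass the threshold (adjusted p = 0.00442 and 0.0258, edgeR). trnS1 (serine) had 172, 145 and 218 in M1BP RNAi and 167, 220 and 114 in WT, with overlapping groups. Of the 22 tRNAs, 14 had a TMM value above 0 and 8 below, among them trnQ and trnD at −0.59 and −0.46, and 4 of the 8 were above 0 with total library size.

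Levels between genes were compared per length, as mtCPM per kilobase. Among the mRNAs the highest was COX1, at 138224 in M1BP RNAi and 89008 in WT, and the lowest was ND6, at 307 in M1BP RNAi and 77.4 in WT, which is a 450-fold range in M1BP RNAi and a 1149-fold range in WT. ATP6, COX3 and CYTB followed COX1 in M1BP RNAi, at 133451 ± 15661, 132039 ± 6617 and 90103 ± 8677 (SD, n = 3). ATP6 was below COX1 in 1 of the 3 M1BP RNAi samples and COX3 in all 3, and ATP6 was above COX3 in 2. In WT the order was COX1, COX3, ATP6 and CYTB, at 89008 ± 4213, 87710 ± 6276, 67119 ± 7722 and 60414 ± 5585 (SD, n = 3). Within a WT sample COX1 was above COX3 in 2 of 3, and COX3 was above ATP6 and ATP6 above CYTB in all 3. The tRNAs spanned 9.10 to 26390 in M1BP RNAi and 0.948 to 41819 in WT, a narrower range upon M1BP RNAi. The low end was trnE in M1BP RNAi, with 22, 9 and 15 counts, and trnI in WT, with 1, 1 and 6 counts. The difference in range thus rests largely on genes with few counts. In the order of all 37 genes, srRNA was in place 22 in M1BP RNAi and 12 in WT, and trnW in place 21 in M1BP RNAi and 29 in WT.

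**Figure D3:**
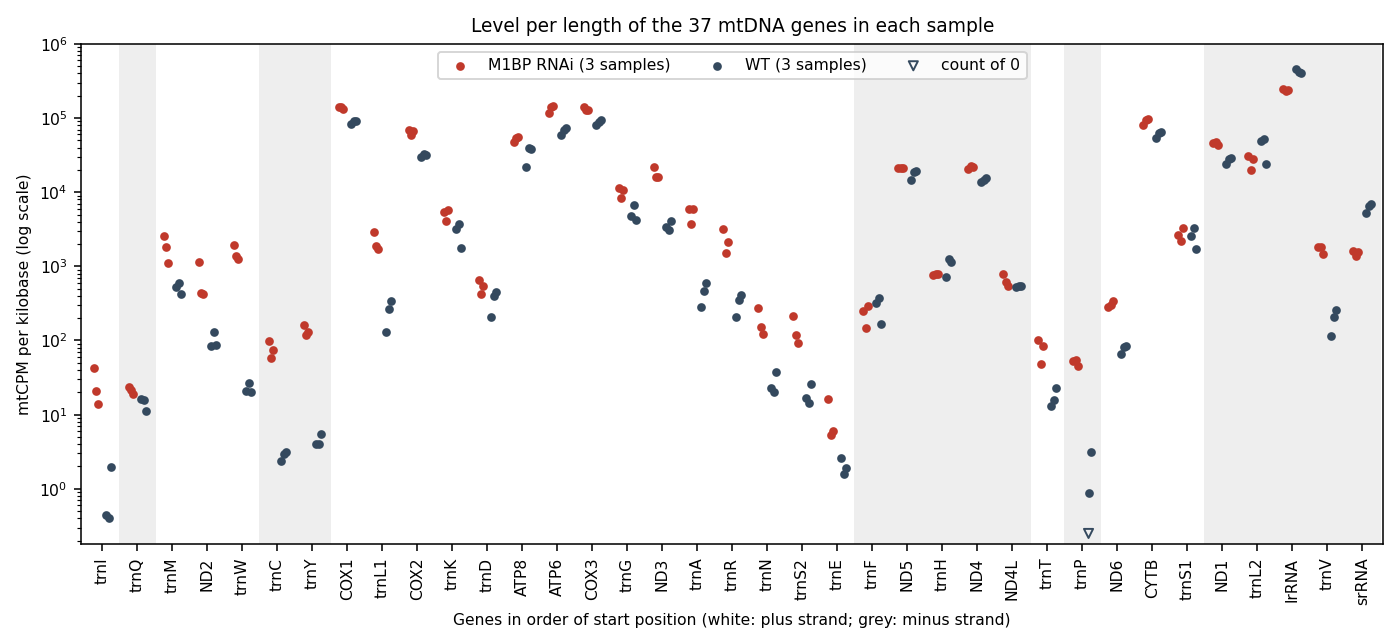
Level per length of the 37 genes (mtCPM per kilobase, log axis) in order of position, with the 3 M1BP RNAi samples to the left of the 3 WT samples at each gene and grey bands for the minus strand. The open triangle marks a count of 0, for trnP in WT 1. The levels of trnW, trnC, trnY and trnV are well separated between the groups, those of COX1 and COX3 are closer together, and srRNA is the clearest case of lower values in M1BP RNAi.

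Ratios between neighbours compare genes within a sample, so that library scaling plays no part. Each gene was divided by the gene before it in order of start position, where both lay on the same strand, as counts per base. This gave 27 pairs. On the minus strand this order runs against the direction of transcription. For no pair can 3 samples against 3 give an exact permutation p below 0.1, or below 0.18 after adjustment over the pairs. The largest shifts were at trnV. It stood at 0.712% of lrRNA in M1BP RNAi and 0.0430% in WT, and srRNA at 88.1% of trnV in M1BP RNAi and 3369% in WT, without overlap in either. trnW stood at 254% of ND2 in M1BP RNAi and 22.9% in WT. Per base, the tRNA was thus above the mRNA before it in M1BP RNAi and below it in WT. This crossing depends on the division by length (66 bases for trnW and 1026 for ND2). The raw counts of trnW were below those of ND2 in every sample. In M1BP RNAi they were 2652, 2283 and 3135, against 24075, 11252 and 16117 for ND2. trnL1 stood at 1.53% of COX1 in M1BP RNAi and 0.255% in WT.

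Other pairs differed less in their ratio. trnY stood at 181% of trnC in M1BP RNAi and 159% in WT, trnN at 7.97% of trnR in M1BP RNAi and 8.33% in WT, and trnS2 at 76.3% of trnN in M1BP RNAi and 71.3% in WT, of which only the last had groups that did not overlap. Over all 27 pairs the groups did not overlap for 15, of which 8 were higher and 7 lower in M1BP RNAi. Adjacent pairs share a gene, so these 15 are not separate results. The share without overlap among pairs of other genes was not counted, so the number does not set the mitochondrial genes apart. Among these 15 were 2 pairs of mRNAs, whereas ATP6 over ATP8 and ND4L over ND4 overlapped. CYTB stood at 293 times ND6 in M1BP RNAi and 782 times in WT (log2 ratios of 8.14 to 8.29 in M1BP RNAi and 9.56 to 9.68 in WT), and COX3 at 99.3% of ATP6 in M1BP RNAi and 131% in WT. The ratio of ATP8 to trnD hardly shifted, with a difference of 0.01 in log2 ratio (exact permutation p = 1).

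**Figure D4:**
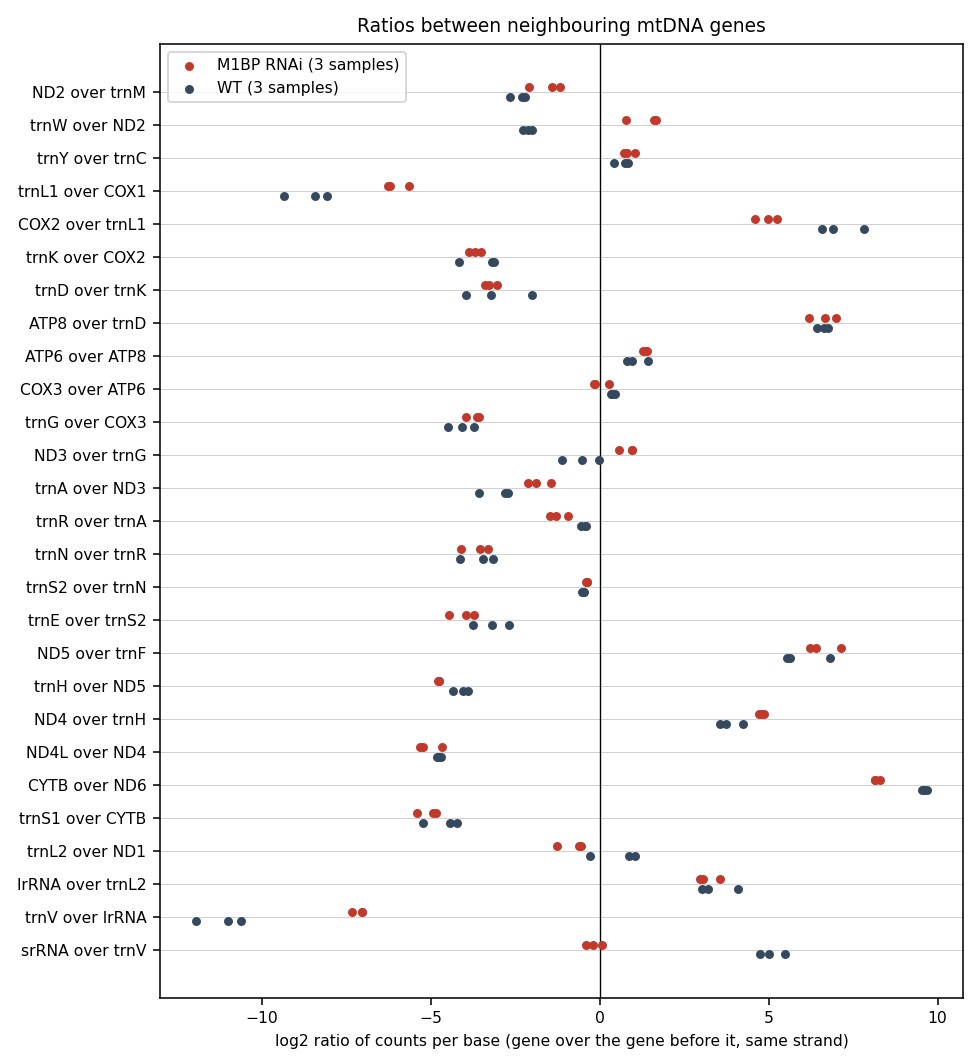
log2 ratio of counts per base of each mitochondrial gene over the gene before it in start position on the same strand. M1BP RNAi points are above WT points in each row. The groups are widest apart for srRNA over trnV, trnV over lrRNA and trnW over ND2, with differences of −5.26, 4.05 and 3.47, and they coincide for ATP8 over trnD.

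The runs of genes on 1 strand, of which there are 10, summarise the same pattern. The long plus strand run from COX1 to trnE took 46.8% ± 0.478 of the mitochondrial counts in M1BP RNAi and 28.0% ± 1.88 in WT, and the plus strand run from ND6 to trnS1 took 10.3% ± 0.989 in M1BP RNAi and 6.89% ± 0.634 in WT (SD, n = 3 each). The last run, from ND1 to srRNA, took 36.3% ± 0.693 in M1BP RNAi and 60.1% ± 3.04 in WT (SD, n = 3 each), and without its rRNAs 6.57% of the remaining counts in M1BP RNAi and 6.60% in WT. The short run of trnM, ND2 and trnW took 0.0911% ± 0.0498 in M1BP RNAi and 0.0140% ± 0.00314 in WT.

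Replicates differed from one another in ways shared by many of the genes. Within the mitochondrial total, 12 of the 13 mRNAs were lowest in WT 1 among the WT samples, where the rRNA share was highest. Of the 22 tRNAs, 10 were lowest in WT 1 and 8 in WT 3, and 17 were highest in M1BP RNAi 1. The WT samples split the tRNAs in opposite ways. trnL2, trnK and trnF in WT 3 were lower than in WT 1 and WT 2, with a highest to lowest ratio over WT samples of 2.14, 2.04 and 2.23, whereas trnV, trnL1 and trnA were lowest in WT 1, with ratios of 2.24, 2.60 and 2.11.

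Finally, nuclear genes that act on mtDNA or its RNA were examined as a list of 22, of which 21 were found and tested. At the same threshold 8 were higher and 1 was lower with TMM scaling (edgeR), where 11.0% and 6.58% of all genes were, and their median log2 fold change was 0.99 against 0.02 over all genes tested. Among the RNA processing factors, mldr, the endonuclease subunit of mitochondrial RNase P, had 83, 65 and 110 counts in M1BP RNAi, against 5, 8 and 17 in WT, with a log2 fold change of 2.56 (SE 0.28, adjusted p = 2.61e-04, edgeR). RNaseZ had 277, 368 and 562 in M1BP RNAi, against 45, 74 and 102 in WT, with a log2 fold change of 1.87 (SE 0.16, adjusted p = 8.10e-05, edgeR). The other RNase P subunits, rswl and scu, were at 0.73 and 0.64 and did not pass. Among factors that stabilise or degrade mitochondrial RNA, bsf rose by 2.58, SLIRP2 by 1.06 and PNPase by 1.98 on the log2 scale (adjusted p = 4.78e-05, 6.10e-04 and 2.33e-05, edgeR). SLIRP1, MTPAP and Suv3 were at 1.06, 1.15 and 0.07 and did not pass (adjusted p = 0.0133, 0.00432 and 0.648, edgeR).

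Of the transcription factors of the list, mtTFB2, which acts with the mitochondrial RNA polymerase, rose by 1.24 and its relative mtTFB1, an rRNA methyltransferase, by 1.30 on the log2 scale (adjusted p = 7.68e-04 and 8.19e-05, edgeR). The polymerase PolrMT itself was at 0.02 and TFAM, which packages mtDNA, at 0.40 (adjusted p = 0.902 and 0.0305, edgeR). The genes of the terminator family, mTTF, mTerf3 and mTerf5, were at 0.22, 0.02 and 0.98 and did not pass (adjusted p = 0.163, 0.908 and 0.00255, edgeR). Of the mtDNA replication genes, PolG2, the accessory subunit of the mtDNA polymerase, rose by 0.99 (adjusted p = 4.06e-04, edgeR). PolG1, its catalytic subunit, fell by 2.69 (SE 0.24, adjusted p = 9.96e-05, edgeR), with 12, 9 and 21 counts in M1BP RNAi, against 46, 49 and 86 in WT. mtSSB and mtDNA-helicase were at −0.04 and 1.18 and did not pass (adjusted p = 0.918 and 0.00751, edgeR). With each sample left out in turn, bsf, RNaseZ, PNPase, mtTFB1 and PolG1 passed in all 6 fits, mldr passed in 2, mtTFB2 and PolG2 in 1 each, and SLIRP2 in 0.

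**Figure D5:**
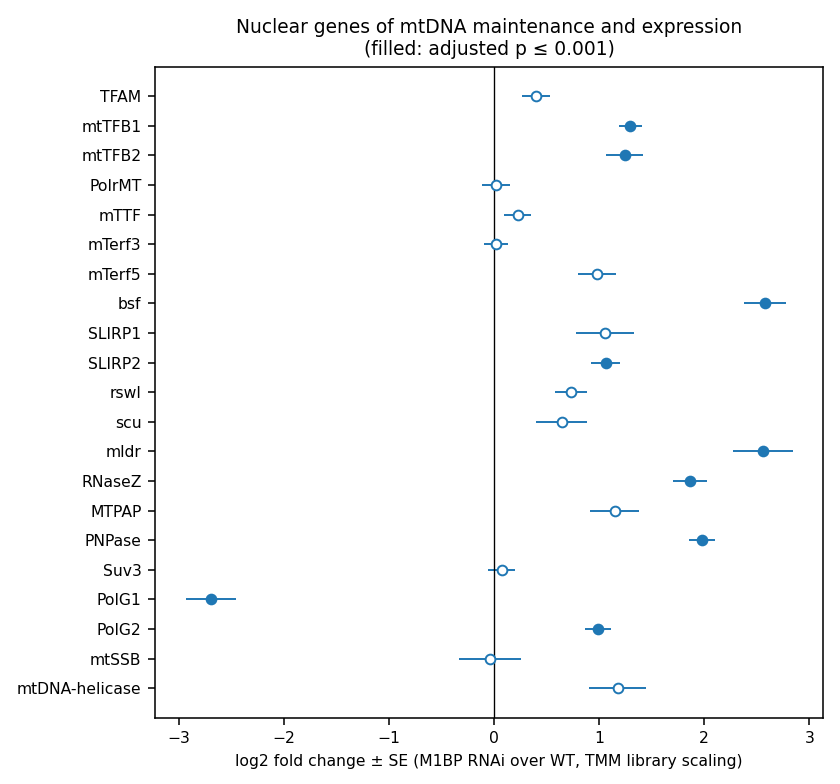
log2 fold change of M1BP RNAi over WT with its standard error for the 21 nuclear genes of mtDNA maintenance and expression that were tested, with TMM scaling. Filled points passed an adjusted p of 0.001. bsf and mldr are the highest, at 2.58 and 2.56, and PolG1 is the only filled point below 0, at −2.69.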

How the data were processed

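Gene counts of 6 flight muscle samples, 3 of M1BP RNAi and 3 of WT, were used. The deposited counts are unnormalized whole numbers per gene over exons, made by the authors with Subread and featureCounts from reads whose column names give unique mapping on release 6 of the genome. The strand setting is not given in the sources used here, and reads that also match nuclear copies of mtDNA would be absent. A deposited table of the authors' DESeq2 comparison (fold changes and p-values) was not used. Names came from RefSeq and FlyBase symbols, matched for 37 of 37 mitochondrial genes, and coordinates are those of the count table. For 34 of the 37 genes RefSeq gives the same start and end.

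Genes were filtered with filterByExpr, which left 9276, and tested with edgeR 4.0.16 (quasi-likelihood test, Benjamini-Hochberg adjustment over all genes, adjusted p of at most 0.001), scaled by TMM or by the mitochondrial total. The threshold on the adjusted p follows the study's, without its fold-change minimum. Shares and neighbour ratios were compared by two-sided exact permutation tests. On counts simulated from these samples, the TMM fit found 200 of 200 changed genes with 1 false call among 9246 genes tested. The planted changes were large (median fitted size 1.99 on the log2 scale) and equally many rose and fell. They were placed in genes above the median level other than the rRNAs, with a fixed dispersion. No shift of the mitochondrial share was planted, so the check does not cover that shift, small changes or scarce tRNAs. Full values are given for the mRNAs, the rRNAs, tRNAs past the threshold with TMM scaling and their neighbours, and the other members that are named were picked with their values in view. The members and lists were chosen with earlier results of these data known. Alternatives were DESeq2 1.42.0, other scalings, no filter, a looser threshold, each sample left out and a replicate block. The study's methods describe its replicates in general as independent, and its sequenced RNA as prepared in triplicate for each condition. The depth of 20474638 to 46353682 mitochondrial counts gave Wilson 95% intervals within 5.67% of the value for every mRNA and rRNA, for counting error only.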

Additional observations from a re-analysis of the deposited data

How the results depend on the processing

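The count of mitochondrial genes past the threshold with TMM scaling, 12 (9 higher, 3 lower), was 12 with RLE factors and with nuclear genes only for the scaling, 16 without a filter (13 and 3), 16 with total library size (14 and 2), 23 with DESeq2 (14 and 9) and 27 at an adjusted p of at most 0.05 (15 and 12). With each sample left out in turn it ran from 5 to 11, with 4 to 6 higher and 1 to 5 lower, and was lowest without M1BP RNAi 2 (5), M1BP RNAi 3 (6) and WT 2 (7). Within the mitochondrial total, 20 genes (18 and 2) became 11 with the rRNAs left out of the total (9 and 2), 21 without a filter, 26 with DESeq2 and 29 at 0.05. With each sample left out it ran from 11 to 18, with 10 to 16 higher and 1 to 2 lower, and was lowest without WT 1 (12) and WT 2 (11). Fewer samples leave fewer degrees of freedom. For these alternatives the share of all genes called was not counted, so the counts compare settings and do not set the mitochondrial genes apart from other genes.

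Same-numbered samples showed no clear shared deviation (correlations of 0.05, 0.18 and −0.02 over 9276 genes), and pairs of unlike number ran from −0.34 to 0.28. With 3 samples per group these correlations cannot exclude a pairing by number. A fit with the replicate number as a block gave 8 genes with TMM scaling (5 and 3) and 13 within the mitochondrial total (12 and 1), and M1BP at −1.35 (adjusted p = 0.00205, edgeR). M1BP was at −0.61 with total library size (adjusted p = 0.0136, edgeR) and between −1.42 and −1.24 with each sample left out.

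Total library size turned trnQ (0.17), COX1 (0.26), COX2 (0.67), trnK (0.43), trnD (0.27), ATP8 (0.29), ATP6 (0.62), COX3 (0.21), trnG (0.57), ND4 (0.18), CYTB (0.21) and ND1 (0.38) above 0, beside a median shift of 0.77. With each sample left out, COX2 lay between −0.16 and 4.3e-04 (above 0 without WT 1), ATP6 between −0.24 and 0.030 (without M1BP RNAi 1) and trnG between −0.41 and 0.0032 (without WT 2). Without the rRNAs in the mitochondrial total, trnQ (−0.13), COX1 (−0.042), trnD (−0.0075), COX3 (−0.084), ND5 (−0.39), ND4 (−0.12), ND4L (−0.41), CYTB (−0.10) and trnS1 (−0.59) went below 0, and with each sample left out trnS1 lay between −0.11 and 0.34, below 0 without M1BP RNAi 3 or WT 3. The cause of these changes of sign other than the denominator itself was not tested.

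With the rRNA genes left out, the difference in the plus strand share was 2.10 percentage points in place of 22.2, that in the protein-coding share 0.274 in place of 25.4, and that in the tRNA share −0.274 in place of 0.0379. Leaving out each sample moved the tRNA share difference between −0.0284 and 0.0815, with the change of sign without WT 3. The other share differences kept their direction. The neighbour ratios that changed sign with a sample left out were trnD over trnK, ATP8 over trnD, trnN over trnR and lrRNA over trnL2, all with overlapping groups. Genes with few counts limit the precision, as for trnI, trnC, trnE and trnP in WT.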
